A study of Mus musculus with 17 samples.

Results

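The 10 genes described here mark fibroblasts carrying Sca-1 on their surface: Ly6a, Ly6c1, Pdgfra, Pi16, Dpp4, Cd34, Clec3b, Dpt, Mfap5 and Gsn. They were taken as a list by name, chosen with earlier results of these data known. All were found among the 55335 genes of the count files and measured in all 17 libraries. Each library held the RNA of a pool of 3000 sorted cells from 3 mice, and the study's methods give littermate females of 8 to 12 weeks unless specified. The mice were WT (Cxcr4+/+), or carried on 1 (+/1013) or both (1013/1013) alleles the Cxcr4 knock-in 1013, which removes part of the tail of the chemokine receptor CXCR4 and leaves it resistant to desensitization. Mice with this allele carry it in every cell, so the comparisons do not isolate an effect within the sorted cells. The cells came from the digested bone fraction of flushed long bones and lacked the surface proteins of blood cells (CD45, TER119) and endothelium (CD31). Skeletal stromal/stem cells (SSCs) were the Sca-1+ CD51+ PDGFRα+ cells and osteoprogenitor cells (OPCs) the Sca-1- CD51+ cells with or without PDGFRα. There were 3 libraries of each cell type and genotype, but 2 of 1013/1013 SSCs.

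Sca-1 is a small protein held to the membrane by a lipid anchor, and in the mouse it marks stromal progenitors, endothelium and some blood stem cells. Fibroblasts around vessels and in loose connective tissue that carry Sca-1 share a set of transcripts across many organs. Their products are a growth factor receptor (PDGFRα), surface proteins (CD34, DPP4) and secreted proteins of the extracellular matrix. Such cells are thought of as a reserve from which more specialized fibroblasts form, and in bone Sca-1 with PDGFRα is a common choice for isolating stromal cells with progenitor activity. Because Sca-1 and PDGFRα were used for the sort, a difference of Ly6a and Pdgfra between SSCs and OPCs only checks the gate. The other 8 genes were not used by it.

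The SSC libraries held 44217695 to 50509592 counts on genes and the OPC libraries 64099849 to 92683497. Levels are given as CPM, the usual read count relative to library size, scaled by the trimmed mean of M values (TMM), with mean ± SD over libraries. A total of 3 counts, taken as the limit of detection, was 0.0449 to 0.0575 CPM in SSCs and 0.0407 to 0.0628 CPM in OPCs, a limit that covers counting error only. The labels give no day or batch of preparation, and the replicate numbers do not name a mouse. The p-values measure the spread between pools, each of which the study counts as a biological replicate. Libraries of WT and mutant SSCs differed beyond the genotype label. Reads on no gene made up 3.68% to 4.16% in WT SSCs and 1.5% to 2.69% in mutant SSCs, and 21449 to 22599 against 15748 to 19227 genes had a count. Whether they were prepared together is not stated, so in SSCs genotype and any shared preparation cannot be told apart. Summed transcripts of 13 leukocyte genes were highest in replicate 3 of WT OPCs (10380 CPM), replicate 2 of 1013/1013 OPCs (9569 CPM) and replicate 3 of WT SSCs (3288 CPM).

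Every one of the 10 genes was higher in each SSC library than in each OPC library of the same genotype. The same held for 22.2% (WT), 18.1% (+/1013) and 18.4% (1013/1013) of all genes tested. Ly6a, Ly6c1, Pi16, Dpp4 and Clec3b were at 14.7 CPM or less in every OPC library, whereas Pdgfra, Cd34, Dpt and Gsn were at 13.9 CPM or more. In mutant SSCs, 8 of the 10 lay above WT SSCs at an unadjusted p under 0.05 (edgeR). Of all genes tested, 7.65% in +/1013 and 8.37% in 1013/1013 did so. After adjustment over all genes edgeR called none of the 10. DESeq2 called 5 in each mutant, beside 2.79% (+/1013) and 4.08% (1013/1013) of all genes called higher. Mutant and WT SSC libraries overlapped for Pdgfra and Dpp4 in both mutants and for Clec3b in +/1013. The +/1013 and 1013/1013 SSC libraries overlapped for each of the 10. In OPCs the genotype groups overlapped for each of the 10.

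**Figure D1:**
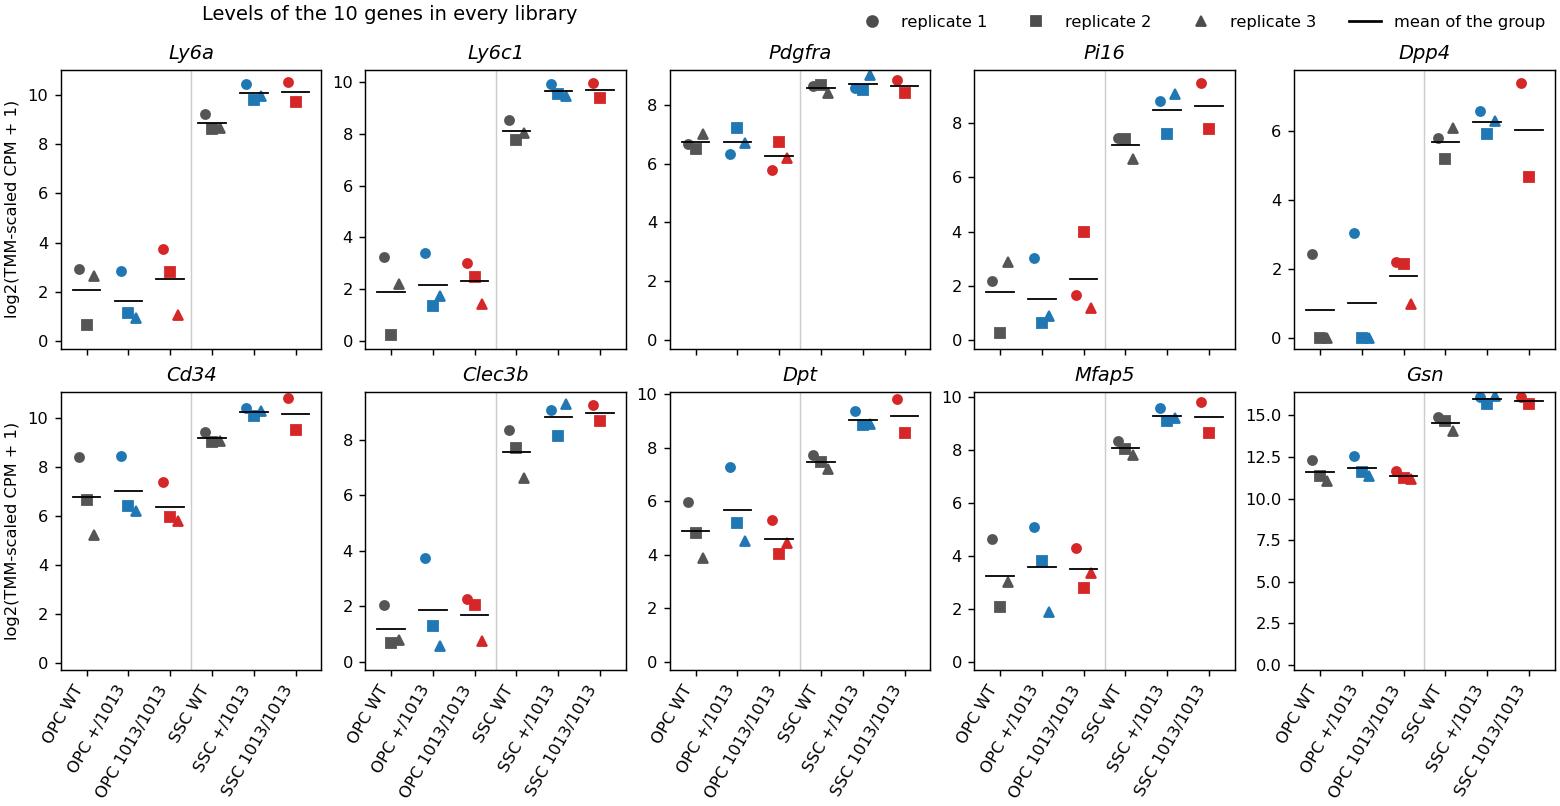
Level of each gene in every library as log2(TMM-scaled CPM + 1), by cell type and genotype. Symbols give the replicate number, colours the genotype and bars the mean of the group on this scale. For each gene all SSC points lie above the OPC points of the same genotype, and replicate 1 (circles) of the OPC groups is often the highest.

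Ly6a (ENSMUSG00000075602.10), which encodes Sca-1, lies on chromosome 15 at 74994877 to 74998031 on the minus strand (mm10). Its level was 599, 386 and 405 CPM in the WT SSC libraries, 1365, 890 and 990 CPM in +/1013 SSCs and 1450 and 838 CPM in 1013/1013 SSCs. In OPCs it was 6.67, 0.569 and 5.23 CPM in WT, 6.12, 1.2 and 0.892 CPM in +/1013 and 12.4, 6.07 and 1.08 CPM in 1013/1013 libraries. The lowest SSC library thus lay far above the highest OPC library. Ly6c1 (ENSMUSG00000079018.10), a neighbour of the same family, lies 46.0 kb away at 75044018 to 75048830 on the same strand. Its level was 373, 215 and 263 CPM in WT SSCs, 976, 755 and 708 CPM in +/1013 SSCs and 1012 and 679 CPM in 1013/1013 SSCs. All 9 OPC libraries lay between 0.162 and 9.62 CPM, so Ly6c1, which the gate did not use, split the cell types as Ly6a did.

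The first 90 coding bases of Ly6a and Ly6c1 are shown for the likeness of the pair, and 86 of these bases are the same. Capitals mark the bases that are identical at the same position, counted from the start codon. The coding sequences, of 402 and 441 bases, were 76.3% identical over 393 aligned bases. The longest identical stretch was 45 bases, which is below the 50 bases of the shortest read kept by the authors. The sequences are those of GENCODE M21 transcripts, and the start codons begin at base 74997604 (Ly6a) and 75048511 (Ly6c1) of chromosome 15.
Ly6a: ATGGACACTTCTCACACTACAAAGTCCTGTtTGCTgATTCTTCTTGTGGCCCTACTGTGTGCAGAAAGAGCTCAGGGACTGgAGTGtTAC
Ly6c1: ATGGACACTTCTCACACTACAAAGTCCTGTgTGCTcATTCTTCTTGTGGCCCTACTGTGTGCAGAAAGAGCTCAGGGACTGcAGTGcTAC
Over whole transcripts, 19.0% of the 1297 distinct runs of 50 bases in Ly6a and 32.8% of the 1764 in Ly6c1 also occur in another gene. Of these, 195 are shared between the pair and 379 between Ly6c1 and Ly6c2. The counts of Ly6a and Ly6c1 are therefore uncertain where a read fits both. The count files hold a separate counter of reads without a unique alignment. The effect of shared reads on the levels of the pair was not tested. Clec3b, Dpt, Mfap5 and Gsn shared no such run with any other gene, and in Pdgfra, Pi16, Dpp4 and Cd34 the shared part was 2.14% to 4.93%. Pdgfra, Pi16, Dpp4 and Cd34 also overlap exons of an antisense transcript, and the strand setting of the counting is not stated.

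Ly6c2 and Ly6g, the family members of monocytes and neutrophils, did not follow Ly6c1. Ly6c2 reached 178 CPM in WT OPCs and 159 CPM in 1013/1013 OPCs and 65.8 CPM in WT SSCs, but no more than 5.15 CPM in +/1013 SSCs. Of 15 genes of the family on chromosome 15 tested between WT SSCs and WT OPCs, 4 were called higher in SSCs by edgeR, where 5.55% of all genes were called higher. They were Ly6a, Ly6c1, Slurp1 (40.6 against 0.440 CPM) and Lynx1 (47.4 against 10.6 CPM). In mutant against WT SSCs none of the 13 tested was called by edgeR. DESeq2 called Ly6a and Ly6c1 higher in both mutants, and Ly6c2 and Ly6g lower in +/1013.

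Pdgfra (ENSMUSG00000029231.15, chromosome 5, 75152292 to 75198215, plus strand) encodes the receptor for platelet-derived growth factors that was used in the sort. It was at 396, 414 and 339 CPM in WT SSCs, 386, 365 and 522 CPM in +/1013 SSCs and 461 and 341 CPM in 1013/1013 SSCs. The OPC libraries ranged from 54.8 to 149 CPM. Pdgfra thus showed the smallest ratio between the cell types, in a gate that admitted OPCs with and without the protein. The related receptor Pdgfrb was called higher in WT SSCs than in WT OPCs (329 against 64.3 CPM, adjusted p = 0.0174, edgeR quasi-likelihood test). The ligand genes Pdgfa and Pdgfd were called lower (23.3 against 76.7 and 9.84 against 83.8 CPM).

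Pi16 (ENSMUSG00000024011.17, chromosome 17, 29317680 to 29330593, plus strand) encodes a peptidase inhibitor and Dpp4 (ENSMUSG00000035000.8, chromosome 2, 62330073 to 62412231, minus strand) a peptidase of the cell surface. Both are used to name adventitial fibroblasts. Pi16 was at 172, 169 and 99.99 CPM in WT SSCs, 440, 193 and 537 CPM in +/1013 SSCs and 711 and 216 CPM in 1013/1013 SSCs. In OPCs it lay between 0.195 and 14.7 CPM, with replicate 2 of the 1013/1013 libraries highest. Dpp4 was at 55.0, 35.7 and 66.7 CPM in WT SSCs, 94.2, 58.8 and 77.7 CPM in +/1013 SSCs and 167 and 24.5 CPM in 1013/1013 SSCs. The pair of 1013/1013 values thus enclosed all other SSC libraries. Dpp4 had no count in replicates 2 and 3 of WT and of +/1013 OPCs, which allows up to 0.0425 to 0.0628 CPM. It reached 4.4 CPM in replicate 1 of WT OPCs and 7.28 CPM in replicate 1 of +/1013 OPCs, and was 1.00 to 3.62 CPM in 1013/1013 OPCs.

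Cd34 (ENSMUSG00000016494.9, chromosome 1, 194938819 to 194961279, plus strand) encodes a surface sialomucin of fibroblasts, endothelium and blood progenitors. It was at 675, 521 and 534 CPM in WT SSCs, 1363, 1068 and 1241 CPM in +/1013 SSCs and 1767 and 728 CPM in 1013/1013 SSCs. In OPCs it was at 336, 97.7 and 36.1 CPM in WT, 342, 82.2 and 73.0 CPM in +/1013 and 163, 60.2 and 54.1 CPM in 1013/1013 libraries. Replicate 1 was the highest OPC library of each genotype. Since endothelium carries Ly6a, Ly6c1 and Cd34, its markers were summed. The 9 endothelial genes found added up to 27.9 to 161 CPM in SSCs and 3.08 to 85.8 CPM in OPCs, and the highest single values in SSCs were those of Tek (86.6 CPM), Pecam1 (35.0 CPM) and Cldn5 (19.3 CPM). Cdh5, which defines endothelium, reached 3.41 CPM and had no count in 1 library each of WT and +/1013 SSCs. Against OPCs, 8 of the 9 endothelial genes had a log2 fold change above 0 in each genotype. By edgeR 1 was called higher, Tek in 1013/1013 cells, and by DESeq2 1 in each genotype, Emcn in WT and Tek in both mutants. Their part in the values of Ly6a, Ly6c1 and Cd34 was not tested.

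The secreted matrix proteins were Clec3b (tetranectin), Dpt (dermatopontin) and Mfap5 (a microfibril glycoprotein). Clec3b (ENSMUSG00000025784.5, chromosome 9, 123150946 to 123157432, plus strand) ranged from 97.9 to 320.5 CPM in WT SSCs and from 278 to 627 CPM in mutant SSCs, against 0.496 to 12.3 CPM in OPCs. Dpt (ENSMUSG00000026574.5, chromosome 1, 164796644 to 164824266, plus strand) was at 209, 174 and 144 CPM in WT SSCs, 659, 455 and 474 CPM in +/1013 SSCs and 887 and 369 CPM in 1013/1013 SSCs. Mfap5 (ENSMUSG00000030116.14, chromosome 6, 122505845 to 122529290, plus strand) was at 224 to 322 CPM in WT SSCs and 399 to 892 CPM in mutant SSCs. In OPCs Dpt was at 13.9 to 155 CPM and Mfap5 at 2.72 to 33.1 CPM, each with its maximum in replicate 1 of +/1013 OPCs. For Dpt that library lay inside the range of WT SSCs, although below the SSCs of its own genotype.

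Gsn (ENSMUSG00000026879.14, chromosome 2, 35256380 to 35307892, plus strand) encodes gelsolin, which severs actin filaments and has a secreted plasma form. It was at 30340, 25920 and 17320 CPM in WT SSCs, 70090, 53030 and 73680 CPM in +/1013 SSCs and 69500 and 51380 CPM in 1013/1013 SSCs. OPCs held 2084 to 6100 CPM. No mutant SSC library overlapped a WT SSC library for Gsn. Of the gelsolin relatives, Capg was called higher in WT SSCs than in WT OPCs (342 against 119 CPM) and Scin lower (21.4 against 62.5 CPM).

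On the scale of CPM per kb of exon length, which allows genes to be set beside each other, Gsn was highest and Dpp4 lowest in all 6 groups. WT SSCs held 7770 ± 2097 CPM per kb of Gsn (SD, n = 3), followed by Ly6a (384 ± 98.0), Clec3b (210 ± 112) and Ly6c1 (169 ± 48.3). Then came Dpt (102 ± 18.7), Cd34 (79.1 ± 11.8), Mfap5 (75.1 ± 13.8), Pdgfra (38.2 ± 3.92), Pi16 (23.1 ± 6.39) and Dpp4 (8.30 ± 2.47). The ranges of Ly6a and Clec3b, of Clec3b and Ly6c1, of Dpt and Cd34 and of Cd34 and Mfap5 overlapped. Within each WT SSC library, however, Ly6a lay above Clec3b and Dpt above Cd34. The order of Clec3b and Ly6c1, and that of Cd34 and Mfap5, changed between the libraries. The order differed in WT OPCs. Cd34 (21.5 ± 21.8), Dpt (19.7 ± 14.2) and Pdgfra (10.6 ± 1.95) followed Gsn (1046 ± 525), and Ly6a stood at 3.45 ± 2.65. From Cd34 to Pdgfra, and from Ly6a downward, neighbours overlapped.

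The comparison of SSCs with OPCs asks what separates the Sca-1+ from the Sca-1- compartment of the same bones. In WT, 8 of the 10 genes were called higher in SSCs, where a call needs an adjusted p under 0.05 (edgeR quasi-likelihood test, Benjamini-Hochberg over 20238 genes) and at least a 1.5-fold difference. Of all genes tested, 5.55% were called higher in WT SSCs. In +/1013 cells 9 were called, beside 6.44% of all genes, and in 1013/1013 cells 9, beside 6.94%. Without Ly6a and Pdgfra, which the gate fixes, the counts were 6, 7 and 7 of 8. The list names markers of Sca-1+ fibroblasts and was chosen with earlier results known. These counts thus describe the list and are not an independent test of it. All 10 lay higher without overlap in each genotype, as did 22.2%, 18.1% and 18.4% of all genes. The median log2 fold change of the 10 was 4.85, 5.13 and 5.49, beside 0.17, 0.00 and -0.20 over all genes. In bulk RNA, fewer cells of a type and less RNA per cell cannot be told apart.

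The size of the difference varied among the 8 genes outside the gate. In WT, Clec3b differed by 7.11 ± 1.25 (log2 fold change ± SE, edgeR, adjusted p = 0.00259), Ly6c1 by 6.13 ± 1.12 (adjusted p = 0.00337), Pi16 by 5.47 ± 1.35 (adjusted p = 0.0183) and Mfap5 by 4.55 ± 0.89 (adjusted p = 0.00494). Gsn differed by 2.89 ± 0.43 (adjusted p = 0.000868) and Dpt by 2.37 ± 0.70 (adjusted p = 0.0429). The values that only check the gate were 6.80 ± 1.12 for Ly6a and 1.85 ± 0.29 for Pdgfra. Cd34, at 1.88 ± 0.76 (adjusted p = 0.130), and Dpp4, at 5.14 ± 2.06 (adjusted p = 0.127), did not pass. With the replicate number as a block both passed, at 2.36 ± 0.49 (adjusted p = 0.0102) for Cd34 and 7.59 ± 2.08 (adjusted p = 0.0391) for Dpp4. Both were highest in replicate 1 of the WT OPCs.

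**Figure D2:**
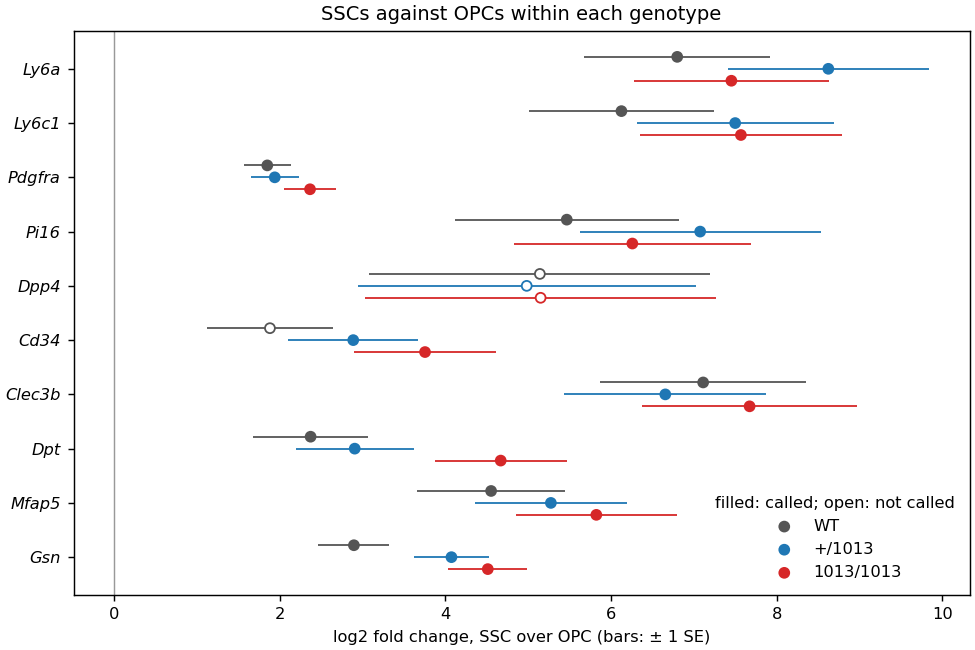
Log2 fold change of SSCs over OPCs within WT, +/1013 and 1013/1013 mice, with bars of 1 SE from the edgeR fit. Filled points were called. All points lie above 0, Ly6a and Pdgfra being set by the gate, and the point of Dpp4 is open in the 3 genotypes and that of Cd34 in WT.

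Within mutants the separation was read against mutant OPCs. Cd34 was called there, at 2.89 ± 0.79 in +/1013 (edgeR, adjusted p = 0.0282) and 3.75 ± 0.85 in 1013/1013 cells (adjusted p = 0.0114). Gsn differed by 4.07 ± 0.45 and 4.51 ± 0.48, and Dpt by 2.90 ± 0.71 and 4.67 ± 0.80. Dpp4 was not called in either, at 4.98 ± 2.04 (adjusted p = 0.132) and 5.15 ± 2.12 (adjusted p = 0.129), and its SE was the largest of the 10.

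A wider list of 25 adventitial fibroblast genes was read in the same way, and 24 were tested. In WT, 12 were called higher in SSCs and 1 lower, with a median log2 fold change of 2.99 beside 0.17 over all genes. In +/1013 and 1013/1013 cells 14 and 13 were called higher and 1 lower. Of all genes, 5.55%, 6.44% and 6.94% were called higher in SSCs of WT, +/1013 and 1013/1013 mice. Procr, the endothelial protein C receptor, was at 0.716 CPM in WT OPCs and 90.7 CPM in WT SSCs. Col14a1, a fibril-associated collagen, was at 2.89 and 219 CPM, Cd248 (endosialin) at 8.96 and 278 CPM, Cd55 at 9.18 and 213 CPM and Igfbp6 at 72.1 and 1395 CPM. Wnt2 had no count in the WT OPC libraries and was at 5.02 CPM in WT SSCs. Fap, a peptidase related to Dpp4, was the gene called lower, at 174 CPM in WT SSCs and 764 CPM in WT OPCs. Of 9 osteoblast genes tested, 9, 9 and 7 were called lower in SSCs of WT, +/1013 and 1013/1013 mice. Among all 20238 genes tested, 1185, 1218 and 1238 were called lower there. Synovial and tendon genes, other fibroblast-like cells that the bone fraction could hold, summed to 5265 to 18070 CPM in SSCs and 1974 to 5023 CPM in OPCs. In WT, +/1013 and 1013/1013, edgeR called 2, 1 and 0 of these 7 higher in SSCs. DESeq2 called 2, 2 and 3, beside 2030 of 19497, 2144 of 18889 and 2173 of 17706 genes. Mural cell genes summed to 158.7 to 615 CPM in SSCs and 258.6 to 1410 CPM in OPCs. Muscle genes summed to 2.72 to 119.9 CPM and 47.6 to 432 CPM, and erythroid genes to 110.7 to 889 CPM and 9.99 to 3257 CPM. The part of these cells in the differences of the 10 genes was not tested.

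The comparison of mutant with WT SSCs asks how the transcripts of Sca-1+ cells differ between mice with and without the mutation. For the 10 genes the log2 fold change was above 0 in both mutant genotypes. At an unadjusted p under 0.05, 8 of the 10 were higher in +/1013 and 8 in 1013/1013 SSCs, beside 7.65% and 8.37% of all genes tested. With 7 genes in +/1013 and 8 in 1013/1013 SSCs the mutant libraries lay above the WT libraries without overlap, beside 15% and 16.4% of all genes. None was called by edgeR in either comparison, beside 0.0736% of 17659 genes in +/1013 and 0% in 1013/1013. DESeq2's Wald test called 5 of the 10 in each, Ly6a, Ly6c1, Dpt, Mfap5 and Gsn, beside 2.79% and 4.08% of genes called higher. The median log2 fold change of the 10 was 1.2 in +/1013 and 1.32 in 1013/1013, and that of all genes -0.11 and -0.23. The mutant comparisons share the 3 WT libraries.

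In +/1013 the largest differences were those of Dpt and Ly6c1. Dpt stood at 1.57 ± 0.36 in +/1013 (log2 fold change ± SE, edgeR, adjusted p = 0.132) and 1.86 ± 0.38 in 1013/1013 (adjusted p = 0.107). Ly6c1 stood at 1.5 ± 0.29 (adjusted p = 0.111) and 1.60 ± 0.31 (adjusted p = 0.1). Pi16 stood at 1.39 ± 0.53 and 1.69 ± 0.58 (adjusted p = 0.248 and 0.204). Gsn stood at 1.40 ± 0.34 and 1.32 ± 0.37, Ly6a at 1.21 ± 0.31 and 1.33 ± 0.34, and Mfap5 at 1.2 ± 0.33 and 1.29 ± 0.36. Clec3b stood at 1.18 ± 0.47 and 1.32 ± 0.51 and Cd34 at 1.07 ± 0.34 and 1.14 ± 0.37. For Clec3b, replicate 2 of +/1013 SSCs (278 CPM) lay below replicate 1 of WT SSCs (320.5 CPM). Pdgfra differed by 0.13 ± 0.22 (adjusted p = 0.849) and 0.08 ± 0.24 (adjusted p = 0.868) and Dpp4 by 0.53 ± 0.62 (adjusted p = 0.748) and 0.90 ± 0.68 (adjusted p = 0.485), and the libraries overlapped for both. The sign of Pdgfra turned without replicate 3 of +/1013 SSCs, and the signs of both genes in 1013/1013 turned without replicate 1 of 1013/1013 SSCs.

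**Figure D3:**
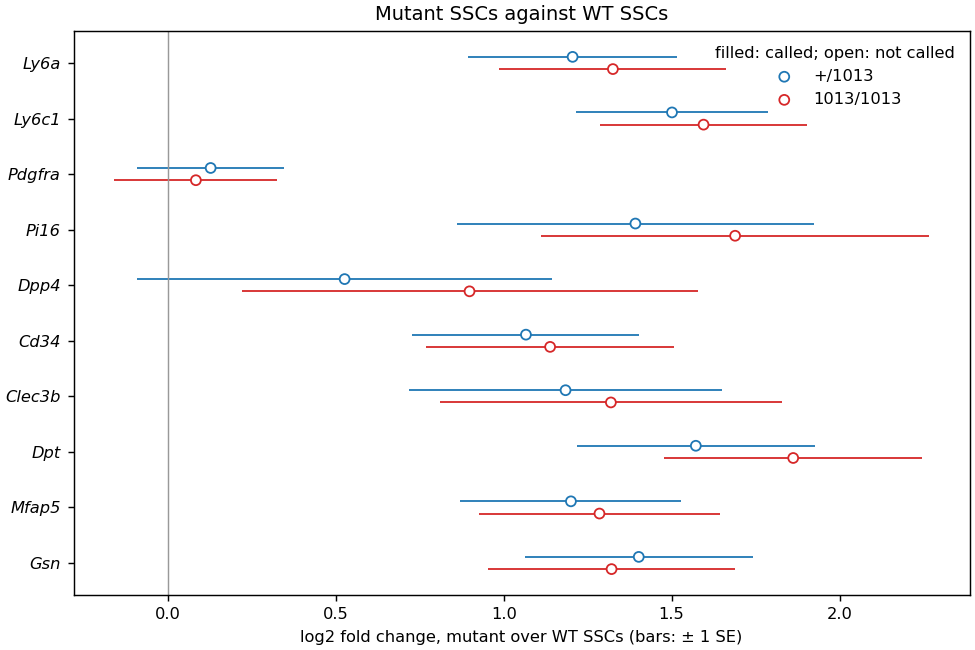
Log2 fold change of +/1013 and 1013/1013 SSCs over WT SSCs for the 10 genes, with bars of 1 SE from the edgeR fit. All points are open, since none was called, and all but those of Pdgfra and Dpp4 lie at 1.07 or above.

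The spread of the 1013/1013 SSCs rests on 2 libraries. Replicate 1 was the higher one for all 10 genes and replicate 2 the lower one. Without replicate 2, edgeR called 8 of the 10 against WT, with the remaining library assumed to vary like the other groups, and without replicate 1 it called 0. The fit without replicate 2 called 2931 genes in all, and 3.5% of all genes were called higher. Without replicate 3 of WT SSCs, which held the most leukocyte transcripts of the SSC libraries, 0 were called in either mutant comparison. The values of WT SSCs on the plain library total, without the TMM factors of 1.30 to 1.42 that these libraries received, were higher. Ly6a was at 628 CPM on that scale and Gsn at 33260 CPM, and +/1013 SSCs then held 1238 and 75090 CPM.

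The difference between mutant and WT SSCs ran with transcript length over all genes. Among genes of at least 10 CPM on average in SSCs, the median log2 fold change in +/1013 was 0.59 for 846 genes with up to 2000 exonic bases, 0.22 for 3519 genes with more and up to 5000 and -0.22 for 3605 longer ones. In 1013/1013 it was 0.63, 0.19 and -0.28. Of the short genes, 89.1% lay higher in +/1013 and 88.4% in 1013/1013 SSCs, and of the long ones 34.3% and 34.4%. Ly6a, Ly6c1, Clec3b and Dpt belong to the short class, Mfap5 and Gsn to the middle one and Pdgfra, Pi16, Dpp4 and Cd34 to the long one. Each of the 10 was above the median of its class in both comparisons. Within the long class, Pi16 and Cd34, of 6364 and 7290 exonic bases, lay higher at an unadjusted p under 0.05 (edgeR) in both mutants. Dpp4 and Pdgfra, of 6319 and 10024, did not. The short and middle members all did. The part of this trend in the values of the 10 genes was not tested.

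**Figure D4:**
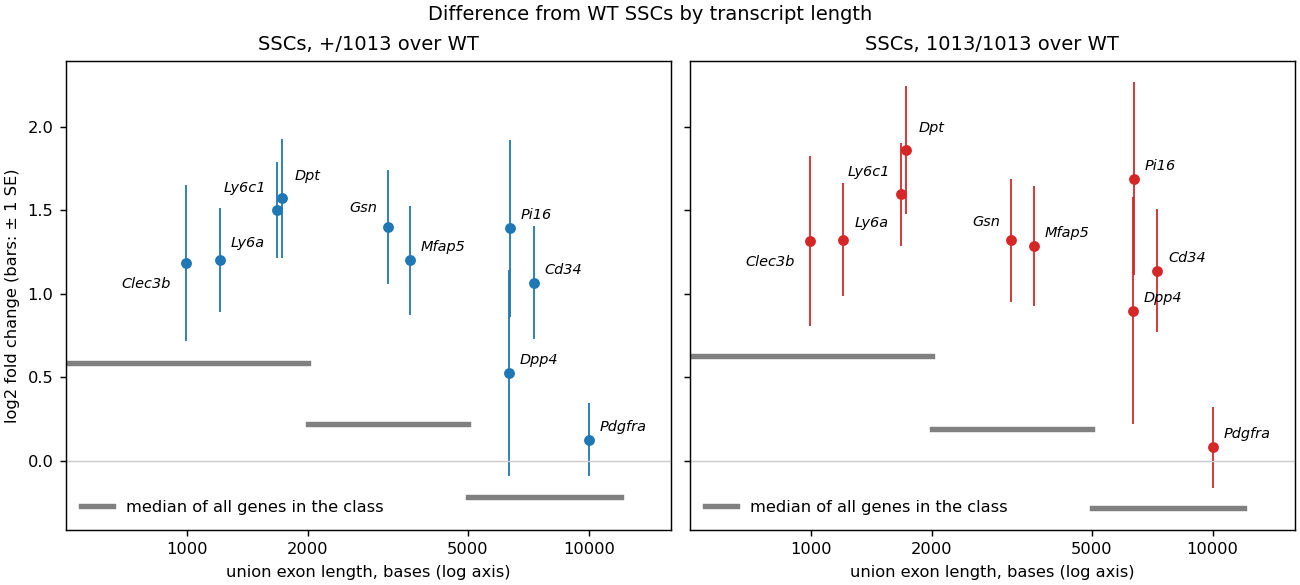
Log2 fold change of mutant over WT SSCs against exonic length on a log axis, with bars of 1 SE, for +/1013 (left) and 1013/1013 (right). Grey bars give the median of all genes of at least 10 CPM in 3 length classes, which falls from 0.59 to -0.22 in +/1013 and from 0.63 to -0.28 in 1013/1013. All 10 points lie above the grey bar of their class.

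Of the 24 adventitial genes tested, none was called by edgeR in either mutant, and 18 of 24 in +/1013 and 19 of 24 in 1013/1013 had a log2 fold change above 0, with medians of 0.45 and 0.49. At an unadjusted p under 0.05, 4 were higher in each, beside 7.65% and 8.37% of all genes, and 0 were lower in +/1013 and 2 in 1013/1013 (Fap and Sfrp2). Efhd1 (18.2 CPM in WT, 65.2 in +/1013 and 79.4 in 1013/1013), Igfbp6 (1395, 2619 and 2544 CPM) and Pcolce2 (390, 744 and 793 CPM) were so in both. Ackr3, an atypical receptor for the CXCR4 ligand, was so in +/1013 (360 and 622.5 CPM) and Wnt2 in 1013/1013. Col14a1, which separated the cell types sharply, showed -0.03 ± 0.36 and -0.22 ± 0.40, and Fap showed -0.45 ± 0.21 and -0.59 ± 0.24. DESeq2 called 1 of the 24 higher in +/1013 (Igfbp6), and in 1013/1013 it called Igfbp6 and Efhd1 higher and Sfrp2 lower. Among the 24 relatives and ligands of the 10 genes none was called by edgeR, while DESeq2 called Capg higher and Dpp8 lower in both mutants.

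Markers of other cells moved in part with the genotypes. Summed leukocyte markers were at 170 to 3288 CPM in WT SSCs, 41.1 to 87.4 CPM in +/1013 and 491 to 901 CPM in 1013/1013 SSCs. DESeq2 called 11 of 12 tested lower in +/1013, beside 918 of 17129 genes. By edgeR none of these markers was called, and 11 were lower at an unadjusted p under 0.05, beside 3061 of 17659 genes in either direction. Their part in the result was not tested. Endothelial markers had a log2 fold change above 0 for 7 of 9 genes in +/1013 and 9 of 9 in 1013/1013, with medians of 1.03 and 1.18 and 0 called by edgeR or DESeq2 or at an unadjusted p under 0.05. The libraries richest in them (161 and 133 CPM) were the replicates 1, which were the highest of their group for 6 and 10 of the 10 genes. Their part in the result was not tested either. Marrow stroma genes summed to 629 to 1121 CPM in WT and 1128 to 2025 CPM in mutant SSCs. Synovial and tendon genes summed to 11250 to 18070 CPM in WT, 8252 to 13300 CPM in +/1013 and 5265 to 15560 CPM in 1013/1013 SSCs, with the lowest value in 1013/1013 replicate 1, the library where the 10 genes were higher. Of the 7, DESeq2 called Prg4, a lubricin of the joint surface, lower in both mutants (4718 CPM in WT, 2657 in +/1013 and 2703 in 1013/1013) and edgeR none. The list did not move as 1, since the log2 fold change was above 0 for 4 of the 7 in +/1013 and for 2 in 1013/1013. Its median was 0.24 and -0.29. Mural cell genes summed to 202.5 to 615 CPM in WT and 158.7 to 322.5 CPM in mutant SSCs, and DESeq2 called Cspg4 lower in +/1013 (197.5 and 100 CPM) and edgeR none. The part of these cells in the result was not tested. Itgav, which encodes the remaining protein of the gate (CD51), was at 54.4 ± 5.06 CPM in WT, 28.3 ± 9.35 in +/1013 and 28.7 ± 3.13 in 1013/1013 SSCs (edgeR, adjusted p = 0.171 and 0.205 against WT).

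Between 1013/1013 and +/1013 SSCs no gene was called by edgeR (0% of all genes, 977 of them at an unadjusted p under 0.05, and 239 called by DESeq2). For the 10 genes the log2 fold change lay between -0.08 ± 0.37 (Gsn) and 0.37 ± 0.68 (Dpp4). A difference between 1 and 2 mutant alleles was not detectable for these 10 genes with these libraries.

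In OPCs no member was called in either mutant by edgeR or DESeq2, and none passed an unadjusted p of 0.05 by edgeR. Of all genes, 0% were called in +/1013 (331 of 16207 at an unadjusted p under 0.05, and 66 called by DESeq2) and 0.00617% in 1013/1013 OPCs. In +/1013 OPCs the log2 fold change was above 0 for 8 genes and below it for 2, and ranged from -0.61 ± 1.14 (Ly6a) to 1.66 ± 1.25 (Clec3b). In 1013/1013 OPCs it was above 0 for 5 and below it for 5, from -0.76 ± 0.89 (Cd34) to 0.88 ± 2.70 (Dpp4). The SE was 0.79 or more for 8 of the 10 genes in each, all but Pdgfra and Gsn, in the fit without a replicate block.

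Levels in OPCs varied by library. In the replicate 1 libraries the median of the 10 genes lay 0.98 (WT), 1.46 (+/1013) and 0.64 (1013/1013) above the mean of their group on the log2(CPM + 1) scale. There, 9, 9 and 8 of the 10 were above that mean. In the other 6 OPC libraries the median lay between -0.75 and 0.22. Gsn, the most abundant of the 10, was at 5187, 6100 and 3279 CPM in the replicate 1 libraries and at 2084 to 3034 CPM in the others. Pdgfra did not share the pattern and was below the mean of its group in all 3 replicate 1 libraries. Whether these libraries were prepared together is not stated, and the share of Sca-1+ cells in them was not tested. The summed endothelial markers were also highest in replicate 1 of WT (22.5 CPM) and +/1013 OPCs (85.8 CPM), but not of 1013/1013 OPCs.

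**Figure D5:**
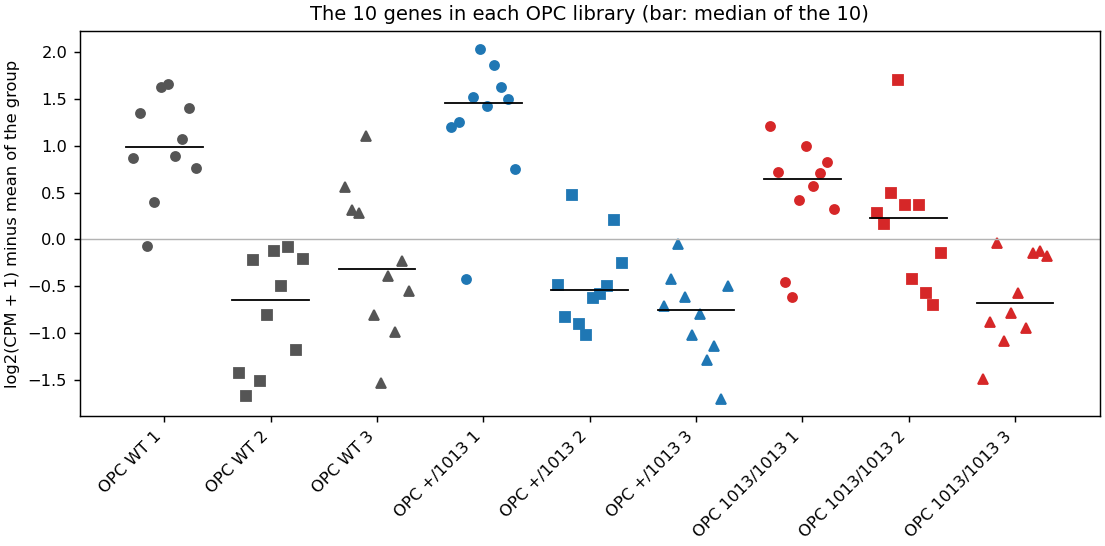
Deviation of each of the 10 genes from the mean of its group, on the log2(TMM-scaled CPM + 1) scale, in the 9 OPC libraries. Each point is a gene and each bar the median of the 10. The bars of the replicate 1 libraries stand highest in each genotype, at 0.98, 1.46 and 0.64.

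The difference between the cell types in the genotype effect was tested as an interaction over the 17 libraries. No member was called by edgeR or DESeq2 in +/1013 (0.084% of all genes by edgeR) or 1013/1013 (0.153%), and 0 and 2 had an unadjusted p under 0.05. In 1013/1013, Gsn had an interaction of 1.62 ± 0.60 (edgeR, unadjusted p = 0.0170, adjusted p = 0.254) and Dpt of 2.30 ± 0.99 (unadjusted p = 0.0368, adjusted p = 0.309). In +/1013 the values were 1.18 ± 0.57 for Gsn (adjusted p = 0.482) and 0.53 ± 0.94 for Dpt (adjusted p = 0.948). The genotype effects in SSCs and in OPCs were thus not shown to differ.

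The genes whose pattern was most like each of the 10 were sought among 9697 genes by the mean absolute difference of centred log2(CPM + 1). The 17 libraries share the 6 groups and their depth, so these are descriptions. Over the 17 libraries Ly6a and Ly6c1 were nearest to each other (0.40), with Clec3b second for both (0.58 and 0.50), and Pi16 was nearest to Clec3b (0.62). Dpp4 and Mfap5 were nearest to Igfbp6 (0.57 and 0.37), which encodes a binding protein of insulin-like growth factors, and Cygb (cytoglobin) was second for both. Cd34 was nearest to Serping1 (0.30), Dpt to Efemp1 (0.26) and Gsn to C1ra (0.25), genes of a complement inhibitor, a matrix protein and a complement protease. Pdgfra had other neighbours, Cox5b (0.25), Lama4 (0.26) and Prrx1 (0.28). Within the 8 SSC libraries, Cd34 and Mfap5 were nearest to each other (0.10), and Ly6a was nearest to Mfap5 (0.12). Gsn was there nearest to Atp5e (0.09) and Rps21 (0.14), short transcripts of ATP synthase and the ribosome.

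Sequence before the start was at hand in RefSeq's GRCm38.p6 promoters for 7 of the 10 genes, in 10 windows. Those of Ly6c1 and Dpt, the genes with the largest differences between +/1013 and WT SSCs, are shown as the 250 bases before the start, in transcript direction. Capitals mark matches to the letters of 2 motifs. In Ly6c1 (chr15:75048838-75049087, minus strand) they are TATAAA, the letters of a TATA box, 143 bases before the start. In Dpt (chr1:164796413-164796662, plus strand) they match the GAS element, the site of STAT factors, 128 bases before the start.
Ly6c1: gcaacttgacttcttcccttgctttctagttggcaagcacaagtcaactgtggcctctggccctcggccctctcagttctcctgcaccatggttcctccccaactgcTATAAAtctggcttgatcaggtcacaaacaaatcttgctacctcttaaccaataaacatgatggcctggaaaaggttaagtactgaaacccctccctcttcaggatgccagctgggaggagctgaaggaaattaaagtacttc
Dpt: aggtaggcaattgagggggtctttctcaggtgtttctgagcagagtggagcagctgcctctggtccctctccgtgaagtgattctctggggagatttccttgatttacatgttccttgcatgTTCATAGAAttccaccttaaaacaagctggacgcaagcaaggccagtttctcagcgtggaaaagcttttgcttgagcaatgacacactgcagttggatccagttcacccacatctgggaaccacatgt
Searched on both strands, TATAAA was found in the window of Dpp4, in 1 of the 2 windows of Ly6c1 (the one shown) and in 12.4% of 32851 promoters of the same length. The GAS element TTCNNNGAA was found in Dpt (7.02% of all), the TEAD site GGAATG in Dpp4 (12.6%) and the AP-1 site TGANTCA in none of the 7 (6.75%). No match overlapped another. A match is a description of the letters and not a site of binding.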

How the data were processed

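The authors generated cDNA with the SMART-Seq v4 kit, which copies polyadenylated RNA, and built Nextera XT libraries. Reads came from pools of sorted cells. They checked paired-end reads with FastQC, discarded reads shorter than 50 bases, aligned to mm10 with STAR and counted with HTSeq, and used DESeq2. Versions, annotation release and strand setting are not given in the sources used here. The deposited values are raw counts per gene, 1 column for each of the 17 libraries, not normalized. The counters of reads on no gene were left out of totals.

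Counts were tested with edgeR 4.0.16 (filterByExpr, TMM, quasi-likelihood with legacy = TRUE) in R 4.3.3. SSC against OPC and interactions came from a fit of all 17 libraries, genotype effects from a fit within each cell type. p-values were adjusted over all genes by the Benjamini-Hochberg method. SEs were derived from the log2 fold change and its F value (absolute change over root F). Levels used TMM factors over all libraries, and exon lengths, positions and transcripts came from GENCODE M21. Alternatives were DESeq2 1.42.0, other scalings and filters, other sets of libraries, a replicate block and each library left out. The functions were tested on simulated data.

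The members and lists were chosen with earlier results of these data known. The text names all 10 genes, and from the lists the genes called or those with the largest changes at 1 CPM or more in a group, except Cdh5, Pecam1, Cldn5, Emcn, Prg4, Cspg4, Ly6c2, Ly6g, Itgav and Col14a1 in mutants, named after their values were seen. Samples with the same number deviated together in SSCs and OPCs of WT (correlations of 0.135, 0.246 and 0.402 over genes). In no other comparison with 3 pairs did all exceed 0.1. Between +/1013 and WT OPCs, which are pools of different mice, the values were 0.392, 0.088 and 0.113. The correlations therefore cannot decide whether a number joins samples of the same mice, and the replicate block was used as an alternative only.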

Additional observations from a re-analysis of the deposited data

How the results depend on the processing

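Of the counts of members called, those of SSCs against OPCs stayed between 7 and 10 of 10 under each alternative. Calls over all genes, in either direction, ranged there from 1020 to 4086 in WT, 1469 to 4517 in +/1013 and 511 to 5015 in 1013/1013. The main fit tested 20238 genes. With the replicate block the members called were 10 (WT), 10 (+/1013) and 9 (1013/1013). The replicate block changed no call of a member in the other comparisons, where it gave 0. In no comparison do the labels say that a number joins samples of the same mice. Between SSCs and OPCs of +/1013 and of 1013/1013, samples with the same number did not deviate together (correlations of -0.056 to 0.089). With it the SE in +/1013 OPCs was 0.32 for Cd34 and 0.39 for Dpt, against 0.89 and 0.80 without. DESeq2 called 5 members in +/1013 and 5 in 1013/1013 SSCs against WT. edgeR called 0 in both, and with each library left out 0 in +/1013 and 0 to 8 in 1013/1013. Without the 3 libraries richest in leukocyte transcripts, chosen after seeing the data, edgeR called 7, 9 and 9 members between SSCs and OPCs and 0 elsewhere. Over all genes the tools differed far more, with 1396 calls by DESeq2 and 13 by edgeR in +/1013 SSCs, 1889 and 0 in 1013/1013 SSCs, and 4086 and 2308, 4517 and 2521, and 5015 and 2642 for SSCs against OPCs in WT, +/1013 and 1013/1013. They made 239 and 0 calls between the mutant SSCs, 66 and 0, and 65 and 1, in mutant OPCs, and 502 and 17, and 1274 and 31, for the interactions. Without 1013/1013 replicate 2, edgeR called 2931 genes in 1013/1013 SSCs against WT. The cause was not tested.

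Values of uncalled members changed sign when 1 library was left out. In SSCs against WT, Pdgfra ranged from -0.076 (without +/1013 replicate 3) to 0.212 in +/1013 and from -0.185 (without 1013/1013 replicate 1) to 0.243 in 1013/1013, and Dpp4 from -1.124 (without 1013/1013 replicate 1) to 1.64 in 1013/1013. In 1013/1013 against +/1013 SSCs, Dpp4 ranged from -1.649 (without 1013/1013 replicate 1) to 1.129 and Gsn from -0.35 to 0.09 (without 1013/1013 replicate 2). In OPCs, Clec3b ranged from -0.625 (without +/1013 replicate 1) to 2.855 in +/1013, and Cd34 from -1.436 to 0.45 (without WT replicate 1) in 1013/1013. The interaction of Dpt in +/1013 ranged from -0.212 (without WT OPC replicate 1) to 1.813. No sign changed between SSCs and OPCs under the alternatives run.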
